A study of Mus musculus with 16 samples.

Results

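The genes described here act in and beside the making and export of ketone bodies in the liver: Acat1, Bdh1, Slc16a1, Slc16a6 and Sirt3. They were chosen by name from knowledge of the pathway, with earlier results of these data known. Their rows of the count table are those whose Ensembl identifiers map to these symbols, so that 5 of the 46078 genes in the table are described. The 5 genes were also all among the 15075 genes with enough counts to be tested. The study compared the liver transcriptome of male mice under 2 diets and 2 feeding states, with 4 libraries per group and 16 in all, to examine how nutrition alters the liver. The mice were of the strain labelled C56B6/J (C57BL6/J in the study's methods), began the diets at 8 weeks of age and stayed on them for 16 weeks. Mice of the CD fed group ate a control diet (CD) without restriction, and those of the CD fast group ate the same diet and were then fasted for 16 h. Mice of the HFD fed group ate a high-fat diet (HFD) with 60% of its energy from fat, and those of the HFD fast group ate that diet and were fasted for 16 h. The labels named no transgene, deletion or drug in any of these groups, and each library was taken as the whole liver of a separate mouse. A whole-liver library mixes cell types, so that fewer cells of a type and less RNA per cell cannot be told apart in any value below.

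Ketone bodies are made in hepatocyte mitochondria from acetyl-CoA that fatty acid oxidation supplies, and they carry fuel from the liver to brain, heart and muscle when glucose is short. Acat1 encodes the mitochondrial acetoacetyl-CoA thiolase, which joins acetyl-CoA units at the entry to the pathway and also splits acetoacetyl-CoA where ketones are burned. Bdh1 encodes 3-hydroxybutyrate dehydrogenase, which reduces acetoacetate to 3-hydroxybutyrate. Slc16a1 encodes the monocarboxylate transporter MCT1, which carries lactate, pyruvate and ketone bodies across the plasma membrane with a proton. Slc16a6 encodes a transporter of the same family (MCT7) that has been linked to the release of 3-hydroxybutyrate from the liver of fasted animals. Sirt3 encodes the main NAD-dependent deacetylase of mitochondria, which acts on enzymes of fatty acid oxidation and ketogenesis. The lists used here do not cover every enzyme of the pathway.

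In the GRCm38 annotation Acat1 (ENSMUSG00000032047) lies at chr9:53580522-53610382 on the minus strand, Bdh1 at chr16:31422280-31458901 on the plus strand and Slc16a1 at chr3:104638668-104658462 on the plus strand. Slc16a6 lies at chr11:109450855-109473598 and Sirt3 at chr7:140863666-140882309, both on the minus strand. Promoter sequence from RefSeq on GRCm38.p6 was matched for 3 of the 5 genes, Slc16a1, Bdh1 and Sirt3. The windows of Bdh1 and Slc16a1, the matched genes that changed with fasting, are shown 5′ to 3′ on the plus strand because they are the upstream sequence of those genes, and capitals mark a match to a searched motif. The Slc16a1 window spans chr3:104638414-104638663 and the Bdh1 window chr16:31422047-31422279, which ends just before the GENCODE start of the gene. RefSeq places the more upstream of its 2 Bdh1 start sites at chr16:31422297, inside the GENCODE gene, and which start the liver uses was not tested.
Slc16a1: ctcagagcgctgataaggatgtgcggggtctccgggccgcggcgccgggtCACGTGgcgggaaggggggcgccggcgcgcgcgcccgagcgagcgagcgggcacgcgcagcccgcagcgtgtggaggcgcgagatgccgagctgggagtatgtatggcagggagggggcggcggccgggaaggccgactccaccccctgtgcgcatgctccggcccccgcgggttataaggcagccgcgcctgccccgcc
Bdh1: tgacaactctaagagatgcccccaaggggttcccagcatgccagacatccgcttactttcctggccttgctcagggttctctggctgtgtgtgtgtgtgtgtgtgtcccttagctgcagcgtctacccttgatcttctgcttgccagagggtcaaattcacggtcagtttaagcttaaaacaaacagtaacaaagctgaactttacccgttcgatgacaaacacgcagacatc
The letters searched on both strands were AGGTCA (the core repeat of many nuclear receptor sites), CACGTG (the E-box) and TGACG (the core of the cAMP response element). The Slc16a1 window held 1 E-box, 200 bases before the start site, a motif found in 6.02% of the 32841 promoter windows of 250 bases. Those windows were not trimmed of exon bases, unlike the Bdh1 window, which was cut to 233 bases. The Bdh1 window shown held none of the 3 motifs. The window of Sirt3, a gene without a call in any comparison, held 1 match to TGACG, 22 bases before its start site, a motif in 17.8% of all windows. AGGTCA was in 14% of all windows. A match here is a description of letters and not a site.

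Acat1 and Bdh1 were abundant in every library and Slc16a6 was scarce. Levels are given as CPM, a count as a proportion of its library's scaled total, and divided by exon length in kilobases (CPM per kb) where genes are set against each other. In the CD fed livers the mean level per length was 108 CPM per kb for Acat1 (SD 6.48, n = 4), 67.1 for Bdh1 (SD 1.24), 14.1 for Sirt3 (SD 1.43), 11.2 for Slc16a1 (SD 2.17) and 1.35 for Slc16a6 (SD 0.35). Acat1 and Bdh1 stood apart from each other and from the rest in this order, whereas the single libraries of Sirt3 (12.3 to 15.6 CPM per kb) and Slc16a1 (9.14 to 14.2 CPM per kb) overlapped. After the fast in CD mice the mean of Acat1 was 186 CPM per kb and that of Slc16a6 was 1.34 CPM per kb. The lowest count of any of these genes in a library was 223 reads, for Slc16a6.

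Within the HFD fed group, replicate 4 stood apart from the other 3 libraries. It differed from them by a chi-square per gene of 135 to 149, against 34.6 to 65.1 among those 3. Distances of that size were also found in other groups, where the chi-square per gene of a pair ran from 78.1 to 158 in CD fed, from 88.8 to 185 in CD fast and from 54.4 to 145 in HFD fast libraries. The deviations of HFD fed replicate 4 from the group mean correlated with those of HFD fast replicate 4 at r = 0.75 across genes, which are not independent replicates. With both of these libraries omitted, a setting added after seeing the data, the number of the 5 genes called was 3 for fasting in CD, 1 for fasting in HFD, 1 for HFD in fed mice, 0 for HFD in fasted mice and 0 for the interaction, the same numbers as with them. The share of all tested genes called in that fit is not given here. Bdh1 with fasting in HFD was then at 0.50 on the log2 scale (adjusted p = 0.0135) and Acat1 with HFD in fed mice at 0.46 (adjusted p = 0.0196).

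Fasting in CD mice was accompanied by higher RNA of the thiolase, the dehydrogenase and MCT1. Acat1 rose 1.73-fold, Bdh1 1.61-fold and Slc16a1 1.47-fold, while no change passed the test for Slc16a6 or Sirt3. Thus 3 of the 5 genes were called higher and none lower, against 13.7% of all tested genes called higher and 11.5% called lower. Their median log2 fold change was 0.56, beside -0.01 over all tested genes. Calls are at an adjusted p under 0.05 in edgeR's quasi-likelihood test, with Benjamini-Hochberg adjustment over all tested genes.

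The Acat1 level was 400.4, 408, 437 and 378 CPM in the 4 CD fed livers and 818, 621, 704 and 661 CPM in the 4 CD fast livers. Every fasted liver was above every fed liver, with a gap wider than the spread of the fed group. The log2 fold change of Acat1 was 0.79 (SE 0.10, adjusted p = 0.000103), and its 95% confidence interval as a fold was 1.48 to 2.01. The Bdh1 level was 262, 254, 261 and 266 CPM in the CD fed livers and 416, 432, 410 and 424 CPM in the CD fast livers. The groups did not overlap, and the coefficient of variation of Bdh1 within each group was 1.85% and 2.36%. Bdh1 changed by 0.69 on the log2 scale (SE 0.09, adjusted p = 0.000111), an interval of 1.41- to 1.85-fold. Over all tested genes, 13.1% had the 4 fasted libraries all above the 4 fed libraries, as these 2 genes did.

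The Slc16a1 level was 63.1, 40.5, 49.2 and 46.1 CPM in the CD fed livers and 98.2, 75.2, 65.2 and 54.5 CPM in the CD fast livers. These groups overlapped, since the highest fed liver was above the lowest fasted liver, and the fasted group varied by a coefficient of 25.5%. Matched by replicate number, which the labels do not say links mice, each fasted liver was above the fed liver of the same number. A fit of the 8 CD libraries with that number as a block, added after seeing the data, gave an adjusted p of 0.0190 for Slc16a1. Slc16a1 changed by 0.56 on the log2 scale (SE 0.19, adjusted p = 0.0428), with an interval of 1.11- to 1.95-fold. The call was lost in 9 of the 16 fits that left out a library, always with the same direction. Without CD fast replicate 1, the highest library, the value was 0.39 (adjusted p = 0.148), and without CD fed replicates 2, 3 and 4 and CD fast replicate 2 the adjusted p was 0.119, 0.0807, 0.0963 and 0.0849. Leaving out replicates 1, 2 or 3 of HFD fed or replicate 1 of HFD fast, which enter only the estimate of spread and the scaling, gave at most 0.0530.

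**Figure D1:**
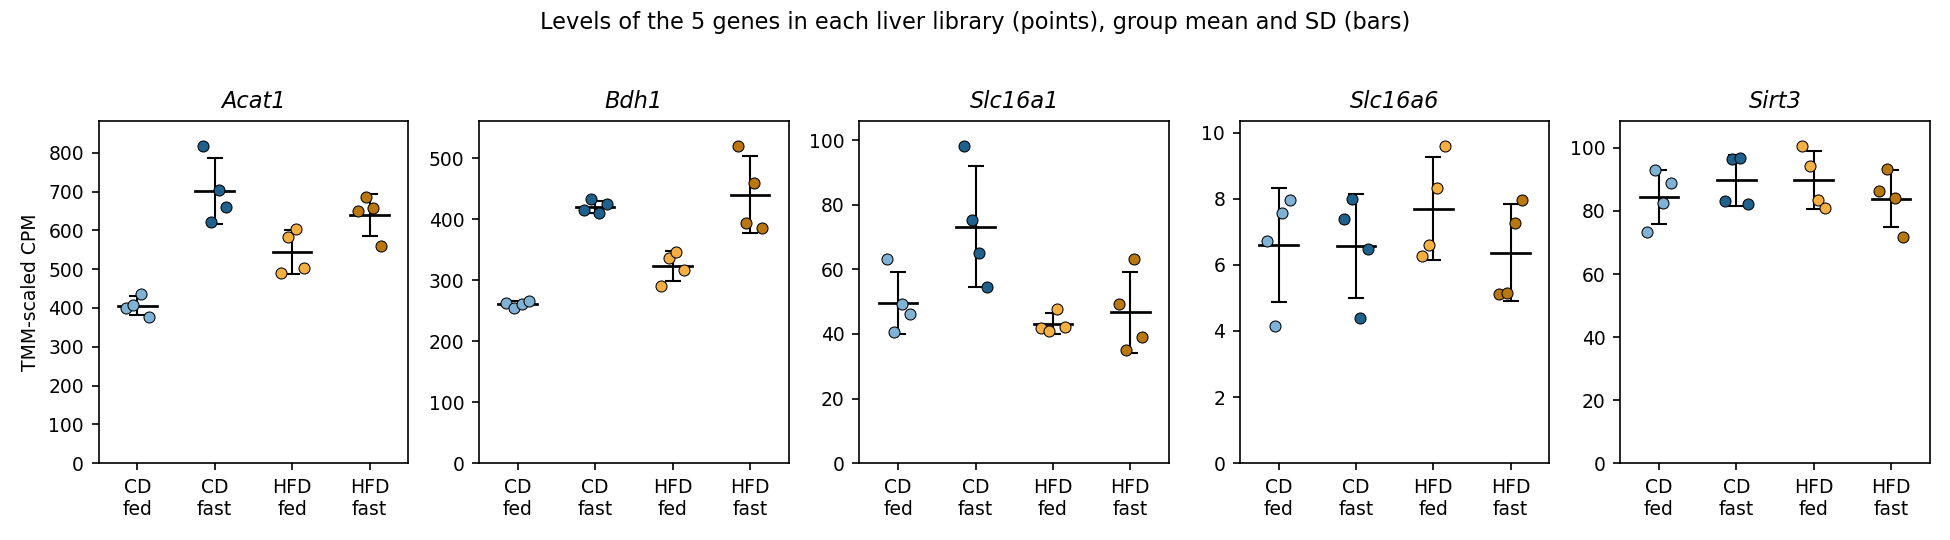
Level of each gene in CPM (vertical axes, starting at 0) in the 4 libraries of each group (points), with the group mean (horizontal line) and SD (error bar). Acat1 and Bdh1 in CD fast livers sit above all CD fed livers, with means of 701 against 406 CPM and 421 against 261 CPM, while the groups of Slc16a6 and Sirt3 overlap throughout.

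Depth and markers of other cells also differed between the groups of this comparison. CD fed libraries held 55415835 to 57583153 counts and CD fast libraries 41364448 to 53982285 counts. The summed level of 5 sinusoidal endothelial markers was 198 to 223 CPM in CD fed and 147 to 194 CPM in CD fast livers, and 2 of the 5 were called lower. The sum of 6 Kupffer cell and macrophage markers was 214 to 424 CPM and 147 to 238 CPM, with 2 of 6 called lower, and that of 5 stellate cell and fibroblast markers was 199.5 to 262 CPM and 120 to 202 CPM, with 1 of 5 called lower. The sum of 6 hepatocyte markers was 104694 to 132812 CPM and 74574 to 106199 CPM, with 2 of 6 (Ttr and Fgb) called lower, and no marker of these 4 lists was at 0 in any group. Of 5 erythrocyte markers, summing to 306 to 402 CPM and 199 to 404 CPM, Alas2 was called lower at -1.09 (adjusted p = 1.2e-05), while the 4 globin genes of the list were at -0.20 to 0.29 without a call. None of these lists had a member called higher, and their part in the results was not tested.

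Fasting in HFD mice was accompanied by higher RNA of Bdh1. In this comparison 1 of 5 genes was called higher and none lower, against 4.78% and 4.07% of all tested genes, and 2 of 5 (Bdh1 and Acat1) had an unadjusted p under 0.05, against 25.6%. The median log2 fold change of the 5 genes was 0.11, beside 0.01 over all tested genes. No library is shared between this comparison and that in CD mice. Among the markers of other cells, the adipocyte marker Cfd was called higher at 3.78 on the log2 scale (adjusted p = 0.0258) and the erythrocyte marker Alas2 lower at -0.38 (adjusted p = 0.0365). The other 4 erythrocyte markers, all globin genes, lay the other way at 0.56 to 0.71 without a call, so that the median of that list was 0.65. The 4 adipocyte markers summed to 0.36 to 3.49 CPM in HFD fed and 2.08 to 70.3 CPM in HFD fast livers, and the 5 erythrocyte markers to 273 to 323 CPM and 299 to 504 CPM, with none at 0 in either group. The 6 hepatocyte markers summed to 107287 to 132711 CPM in HFD fed and 71093 to 103479 CPM in HFD fast livers, without overlap, and none of them was called, with Ttr at -0.66 (adjusted p = 0.0550) and Alb at -0.56 (adjusted p = 0.0745). The part of these cells in the Bdh1 result was not tested.

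The Bdh1 level was 291, 337, 346 and 317 CPM in the HFD fed livers and 520.1, 393, 459.9 and 386 CPM in the HFD fast livers. The groups did not overlap, which also held for 8.02% of all tested genes in this direction. Bdh1 changed by 0.45 on the log2 scale (SE 0.09, adjusted p = 0.00936), an interval of 1.19- to 1.56-fold, and the call was kept in 16 of 16 fits that left out a library. Fitted on the HFD libraries alone, the adjusted p was 0.0512. The Acat1 level was 490.3, 582, 604 and 502 CPM in the HFD fed livers and 649, 686, 659 and 561 CPM in the HFD fast livers. The lowest fasted liver lay below the 2 highest fed livers, and the log2 fold change of Acat1 was 0.23 (SE 0.10, adjusted p = 0.176), an interval of 1.01- to 1.37-fold. The Slc16a1 level was 41.8, 41, 47.9 and 42.1 CPM in the HFD fed livers and 49.4, 35.2, 63.2 and 39.2 CPM in the HFD fast livers. The fasted livers lay on both sides of the fed livers, and the log2 fold change of Slc16a1 was 0.11 (SE 0.19, adjusted p = 0.747). Its sign turned without HFD fast replicate 3, to -0.07.

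Whether the fasting change differed between diets was tested as the diet by fasting interaction, the change in HFD mice minus the change in CD mice. None of the 5 genes passed this test in edgeR, against 2.59% of all tested genes, while 1 of 5 had an unadjusted p under 0.05, a share near the 20.2% of all tested genes. DESeq2 called 1 of 5, against 7.69% of its tested genes, and limma-voom 0, against 2.37%. On counts simulated for fasting in CD with 200 changed genes, DESeq2 recovered more of the changed genes than edgeR or limma-voom and a larger share of its calls was false. The data had 3797 genes called in that comparison, and a false share depends on how many genes change. The other comparisons were not simulated, so this does not weigh the DESeq2 call here. The gene that DESeq2 called was Acat1, with a log2 interaction of -0.56 in edgeR (SE 0.15, adjusted p = 0.0550). The adjusted p of Acat1 was 0.00458 in DESeq2 and 0.0447 when genes were kept at a CPM above 1 in at least 4 libraries. The log2 interaction was -0.24 for Bdh1 (adjusted p = 0.305), -0.45 for Slc16a1 (adjusted p = 0.372), -0.26 for Slc16a6 (adjusted p = 0.687) and -0.19 for Sirt3 (adjusted p = 0.492). The call of Acat1 with fasting in CD and not in HFD is therefore not shown by this test to be a difference between diets.

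**Figure D2:**
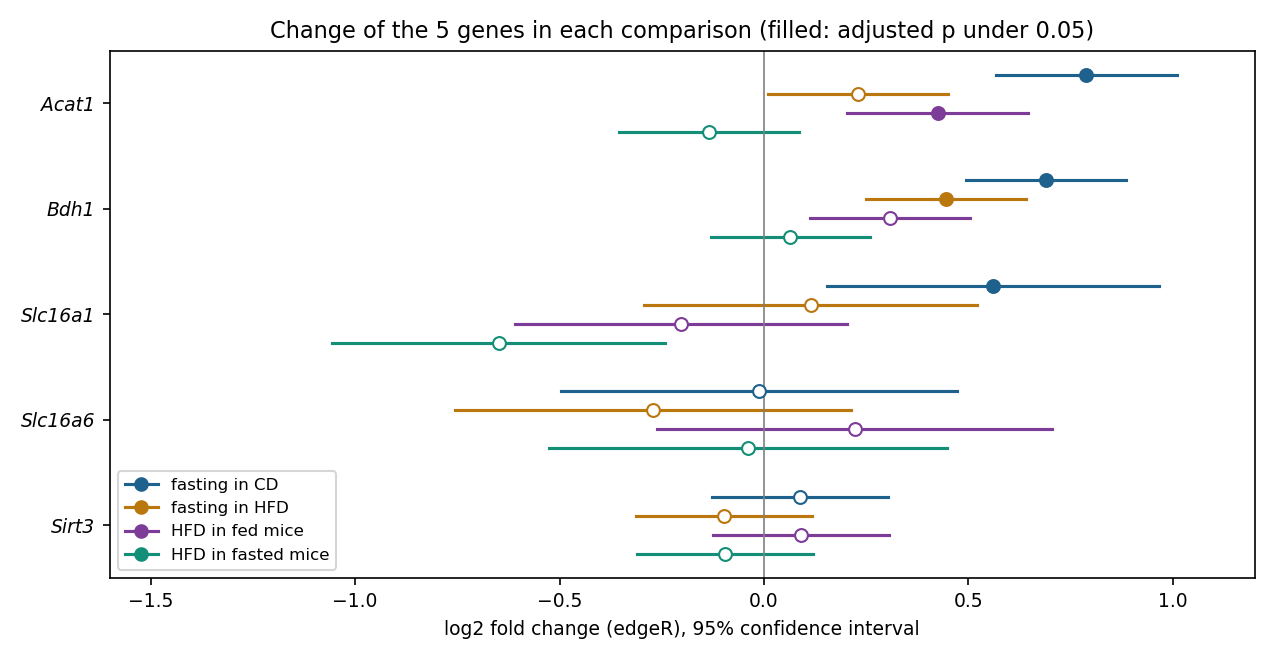
Log2 fold change of each gene (horizontal axis) in the 4 comparisons, with the 95% confidence interval (line); filled points passed an adjusted p of 0.05. The intervals of Acat1 and Bdh1 for fasting in CD lie wholly above 0, at 0.79 and 0.69, whereas those of Slc16a6 and Sirt3 span 0 in every comparison.

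In fed mice, the high-fat diet was accompanied by higher Acat1 RNA. The comparison of HFD fed with CD fed livers called 1 of 5 genes higher and none lower, against 3.28% and 4.22% of all tested genes. The HFD fed livers, at 490.3 to 604 CPM, were all above the CD fed livers, at 378 to 437 CPM, and the log2 fold change of Acat1 was 0.42 (SE 0.10, adjusted p = 0.0228), an interval of 1.15- to 1.56-fold. The call was lost in 5 of 16 fits that left out a library, with an adjusted p of 0.0549, 0.0626 and 0.0614 without CD fed replicates 1, 2 and 4 and of 0.0596 and 0.0768 without HFD fed replicates 2 and 3. For Bdh1 the HFD fed livers, at 291 to 346 CPM, were also all above the CD fed livers, at 254 to 266 CPM, and the log2 fold change was 0.31 (SE 0.09, adjusted p = 0.0532). Such a separation was seen in 7.22% of all tested genes. An unadjusted p under 0.05 was found for 2 of 5 genes, against 22.9% of all tested genes, and DESeq2 and limma-voom each called 2, against 10.8% and 7.28%. Bdh1 passed the threshold in DESeq2 (adjusted p = 0.0115) and in limma-voom (adjusted p = 0.0452), and in edgeR without HFD fast replicates 1, 2 or 4 (adjusted p = 0.0308, 0.0425 and 0.0398). For Slc16a1 it was -0.20 (SE 0.19, adjusted p = 0.573).

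In fasted mice, no difference between HFD and CD livers passed the test for any of the 5 genes. In edgeR 0 of 5 were called, against 3.05% of all tested genes called higher and 4.65% called lower, and 1 of 5 had an unadjusted p under 0.05, a share no higher than the 25.9% of all tested genes. There was 1 call in DESeq2, against 12.6% of its tested genes, and 0 in limma-voom, against 6.77%. That gene was Slc16a1, at 35.2 to 63.2 CPM in the HFD fast livers and 54.5 to 98.2 CPM in the CD fast livers. Its groups overlapped, and its log2 fold change was -0.65 (SE 0.19, adjusted p = 0.0502), an interval of 0.48- to 0.85-fold. It passed with the replicate number as a block, with an adjusted p of 0.0260, and in DESeq2, with an adjusted p of 0.0138. It also passed without CD fed replicate 1, CD fast replicate 4 or HFD fast replicate 3, with an adjusted p of 0.0418, 0.0314 and 0.0297. The log2 fold change was -0.13 for Acat1 (adjusted p = 0.442) and 0.06 for Bdh1 (adjusted p = 0.701). Scaling by total counts moved the median of all genes in this comparison to 0.17 from 0.01, and the Acat1 value then became 0.02, so that relative to that shift it stayed lower. Markers called in this comparison were Stab2 and Pecam1 of sinusoidal endothelial cells, Reln of stellate cells and the erythrocyte marker Alas2, all higher in HFD fast livers by 0.39 to 0.75 on the log2 scale, and their part in the values of the 5 genes was not tested.

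For the 3 genes called with fasting in CD, the group means are given from the lowest to the highest. The mean of Acat1 was 406 CPM in CD fed (SD 24.3), 545 in HFD fed (SD 56.8), 639 in HFD fast (SD 54.2) and 701 CPM in CD fast livers (SD 85), and of the neighbours in this order only CD fed and HFD fed differed past the threshold. The mean of Bdh1 was 261 CPM in CD fed (SD 4.83), 323 in HFD fed (SD 24.6), 421 in CD fast (SD 9.93) and 439.8 CPM in HFD fast livers (SD 63.1). For neither Acat1 nor Bdh1 did CD fast and HFD fast differ past the threshold, so the order of these groups is not settled: scaled by total counts Acat1 was at 674 CPM in HFD fast and 665 CPM in CD fast livers, and without HFD fast replicate 1 the log2 difference of Bdh1 between them turned to -0.03. CD fed and HFD fed did not differ past the threshold for Bdh1 either. The mean of Slc16a1 was 43.2 CPM in HFD fed (SD 3.17), 46.7 in HFD fast (SD 12.5), 49.7 in CD fed (SD 9.61) and 73.3 CPM in CD fast livers (SD 18.7). Its HFD fed and HFD fast groups did not differ past the threshold, and HFD fast was not tested against CD fed. Fasting in CD shares the CD fed libraries with the comparison of diets in fed mice and the CD fast libraries with that in fasted mice, and the HFD groups are shared in the same way, so the values of the 4 comparisons are not independent.

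Slc16a6 was low, and no change passed the test in any comparison. Its level was 6.73, 4.15, 7.58 and 7.97 CPM in CD fed, 7.38, 7.98, 4.39 and 6.49 CPM in CD fast, 6.27, 6.61, 8.33 and 9.6 CPM in HFD fed, and 5.12, 5.14, 7.25 and 7.98 CPM in HFD fast livers. The groups overlapped in all 4 comparisons. The log2 fold change for fasting in CD was -0.01 (SE 0.23, adjusted p = 0.975), an interval of 0.71- to 1.39-fold, so that a rise of the size seen for Acat1 was outside it. It was -0.27 for fasting in HFD (adjusted p = 0.481), 0.22 for HFD in fed mice (adjusted p = 0.610) and -0.04 for HFD in fasted mice (adjusted p = 0.937). Slc16a6 shares 1052 exon bases with Amz2 and 48 with Arsg on the opposite strand and 49 with the miRNA gene Gm25540, and the strand setting of the counting is not given in the sources used here, so reads of these genes cannot be told apart in the shared stretch. The log2 fold change of Amz2 for fasting in CD was 0.07 (adjusted p = 0.543) and that of Arsg 0.93 (adjusted p = 0.0748).

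For Sirt3, too, no change passed the test in any comparison. Its level was 73.2, 92.9, 82.6 and 88.7 CPM in CD fed, 83, 96.4, 96.9 and 82.3 CPM in CD fast, 100.6, 94.2, 83.4 and 80.9 CPM in HFD fed, and 86.4, 93.4, 84 and 71.7 CPM in HFD fast livers. All groups overlapped, and the log2 fold change was 0.09 for fasting in CD (SE 0.10, adjusted p = 0.563), -0.10 for fasting in HFD (adjusted p = 0.581), 0.09 for HFD in fed mice (adjusted p = 0.649) and -0.10 for HFD in fasted mice (adjusted p = 0.585). The 4 intervals together ran from 0.80- to 1.24-fold. Sirt3 shares 418 exon bases with Ric8a and 342 with Psmd13 on the opposite strand. Both neighbours rose with fasting in CD, by a log2 fold change of 0.44 for Ric8a (adjusted p = 0.00349) and 0.29 for Psmd13 (adjusted p = 0.00423), and their part in the Sirt3 counts was not tested. Acat1 overlapped no other gene, Bdh1 shared 533 exon bases with the antisense gene Gm15743, which had at most 1 count in a library, and Slc16a1 shared exon bases with none.

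The enzymes most closely related in reaction to Acat1 and Bdh1 moved the other way in CD mice. Acat2 encodes the cytosolic acetoacetyl-CoA thiolase, which feeds sterol synthesis, and its level was 72.5, 89.5, 70.1 and 55.4 CPM in CD fed livers and 25.6, 22.6, 30.9 and 27.4 CPM in CD fast livers. Every fasted liver was below every fed liver, and Acat2 had a log2 fold change of -1.43 (SE 0.17, adjusted p = 4.85e-05). Bdh2, which encodes a cytosolic dehydrogenase that acts on 3-hydroxybutyrate and in siderophore synthesis, was at 13.5, 14.4, 14.1 and 13.3 CPM in CD fed and 5.75, 3.99, 7.01 and 4.9 CPM in CD fast livers. These groups did not overlap either, and Bdh2 had a log2 fold change of -1.35 (SE 0.17, adjusted p = 7.04e-05). In HFD mice the log2 fold change with fasting was -0.84 for Bdh2 (adjusted p = 0.00789) and -0.31 for Acat2 (adjusted p = 0.268). In CD fed livers the mean level per length was 28.2 CPM per kb for Acat2 and 3.25 CPM per kb for Bdh2, below the 108 CPM per kb of Acat1 and the 67.1 CPM per kb of Bdh1.

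**Figure D3:**
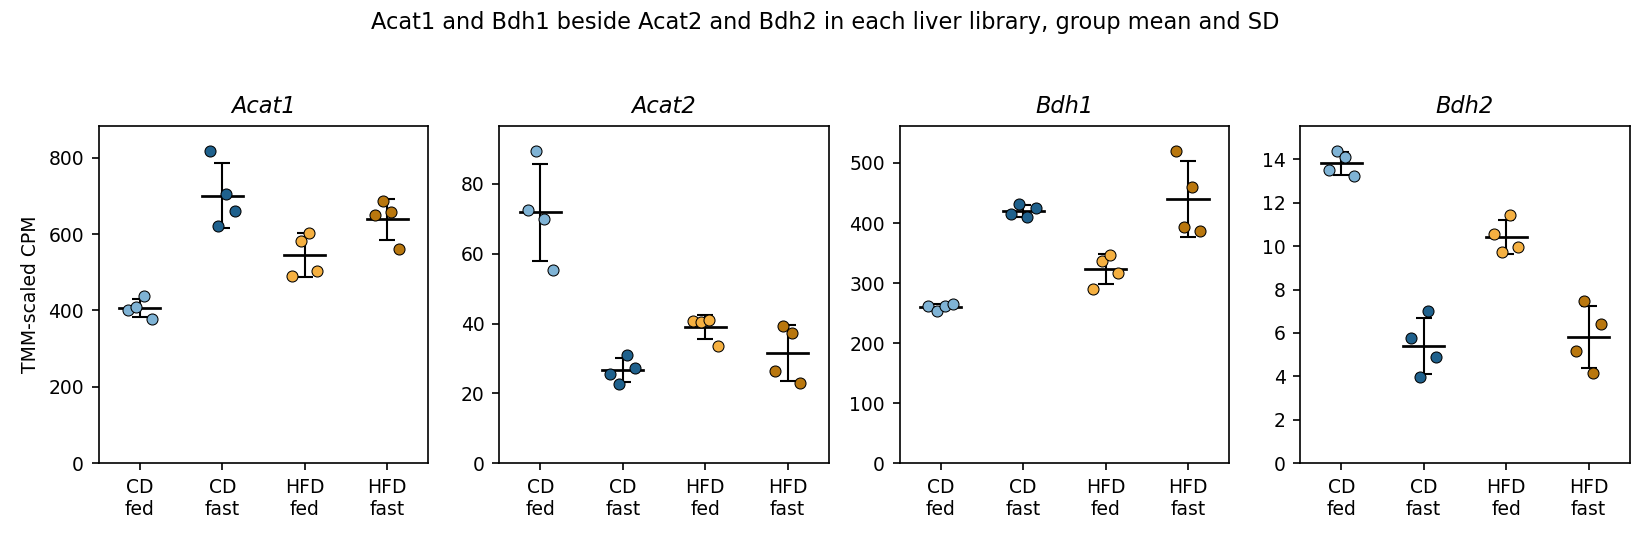
Level in CPM (vertical axes, starting at 0) of Acat1, Acat2, Bdh1 and Bdh2 in the 4 libraries of each group (points), with mean and SD. From CD fed to CD fast, Acat1 and Bdh1 go up and Acat2 and Bdh2 go down, with means of 71.8 against 26.6 CPM for Acat2 and 13.8 against 5.41 CPM for Bdh2.

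The list of other enzymes of ketone body metabolism held 9 genes, of which 6 were tested. It includes the acetyl-CoA synthetases Acss1 and Acss2, which act on acetate and not on a ketone body. The counts and medians below include both, and Acss1 was scarce, averaging 0.24 to 0.55 CPM in the groups. With fasting in CD, 4 fell and 0 rose, against 11.5% and 13.7% of all tested genes, with a median log2 fold change of -1.39. Beside Acat2 and Bdh2 these were Aacs, the cytosolic acetoacetyl-CoA synthetase that returns ketones to lipid synthesis, at -2.55 (adjusted p = 0.00335), and Acss2, the cytosolic acetyl-CoA synthetase, at -2.30 (adjusted p = 2.52e-05). With fasting in HFD, 1 of 6 fell (Bdh2) and 0 rose, against 4.07% and 4.78% of all tested genes, with a median of -0.23. With HFD in fed mice 2 of 6 fell, against 4.22% of all tested genes, Acat2 at -0.88 (adjusted p = 0.00622) and Acss2 at -2.21 (adjusted p = 0.000238), with a median of -0.51. With HFD in fasted mice 1 of 6 rose, against 3.05% of all tested genes, Aacs at 1.79 (adjusted p = 0.0499), a call kept in 3 of 16 fits that left out a library and lost without both HFD libraries numbered 4 (adjusted p = 0.0830). Oxct1, the transferase that lets tissues burn ketones and that hepatocytes largely lack, averaged between 2.24 and 3.88 CPM in the groups, and no change of it passed the test. The untested genes were Oxct2a, Oxct2b and Hmgcll1.

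Among the other Slc16 transporters and their chaperones, 4 of 11 tested genes rose with fasting in CD and 0 fell, against 13.7% and 11.5% of all tested genes, with a median log2 fold change of 0.26. The count of 4 became 3 to 4 over the alternatives and 2 to 4 with a library left out, being 2 when CD fed replicate 1 or 2 was omitted. An unadjusted p under 0.05 was found for 4 of the 11, a share near the 37.6% of all tested genes. Slc16a7 encodes MCT2, a high-affinity carrier of lactate, pyruvate and ketone bodies, and its level was 30.2, 40, 36.8 and 29.9 CPM in CD fed and 52.7, 62.3, 90.7 and 86.7 CPM in CD fast livers. The groups did not overlap, and Slc16a7 had a log2 fold change of 1.10 (SE 0.19, adjusted p = 0.000990). Slc16a7 also rose with fasting in HFD, at 0.76 (adjusted p = 0.0242), the only call of this list there (1 of 11, against 4.78% of all tested genes called higher), with a list median of 0.29. That call was lost without HFD fed replicates 1 or 2 or HFD fast replicate 2, with an adjusted p of 0.0795, 0.0681 and 0.0643. Per length, the mean of Slc16a7 in CD fast livers was 6.18 CPM per kb, against 16.6 CPM per kb for Slc16a1 and 1.34 CPM per kb for Slc16a6.

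The transporter with the highest log2 fold change in this list was Slc16a5 (MCT6), at 11.6, 14.3, 17.5 and 10.1 CPM in CD fed and 49.8, 139.7, 85.1 and 126 CPM in CD fast livers. The groups did not overlap, with a log2 fold change of 2.91 (SE 0.54, adjusted p = 0.00145). In HFD fed livers it was at 11.4, 11.1, 60 and 66.9 CPM, so that this group held both low and high libraries. Slc16a13 (MCT13), a lactate carrier of the liver, rose by 1.86 in CD on the log2 scale (SE 0.53, adjusted p = 0.0194) from a mean of 2.41 to 8.75 CPM, and the adjusted p was 0.0576 and 0.0543 without CD fed replicates 1 and 2. Bsg encodes basigin, the chaperone that brings MCT1 to the cell surface, and it had a log2 fold change of 0.26 in CD (adjusted p = 0.0288), from a mean of 252 to 301 CPM. With the replicate number as a block in the CD libraries the adjusted p of Bsg was 0.0770, and its call was lost in 4 of 16 fits that left out a library, up to an adjusted p of 0.0925 when CD fast replicate 2 was omitted. Slc16a4, Slc16a8 and Slc16a14 were not tested. Slc16a3 and Emb were tested but scarce, with group means of 0.18 to 0.39 CPM and 0.25 to 0.62 CPM.

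The genes that carry fatty acids into mitochondria and oxidise them, the source of the acetyl-CoA used by Acat1, formed a list of 15. With fasting in CD 12 of 15 rose and 0 fell, against 13.7% and 11.5% of all tested genes, with a median log2 fold change of 0.95 beside -0.01 over all tested genes. Cpt1a, the carnitine palmitoyltransferase at the entry step, rose from a mean of 507 to 1387 CPM, a log2 fold change of 1.45 (SE 0.17, adjusted p = 4.5e-05). Hadhb, which encodes the thiolase subunit of the trifunctional protein, was at 206 to 243 CPM in CD fed and 472 to 517 CPM in CD fast livers, without overlap, and had a log2 fold change of 1.16 (SE 0.10, adjusted p = 4.21e-06). The 3 genes without a call were Echs1, Acaa2 and Etfa, at -0.01, 0.25 and 0.09. With fasting in HFD 7 of 15 rose and 0 fell, against 4.78% and 4.07% of all tested genes, with a median of 0.36: Cpt1a, Slc25a20, Acadm, Hadha, Hadhb, Hadh and Etfdh, from 0.36 to 0.72. Hadhb and Etfdh kept this call in 16 of 16 fits that left out a library, Acadm and Hadh in 14, Cpt1a in 13, Slc25a20 in 6 and Hadha in 2. The count of 7 became 4 to 9 over the alternatives and 2 to 9 with a library left out, being 2 when replicate 1 of either HFD group was omitted and 4 when HFD fed replicate 2 was omitted. With HFD in fed mice 5 of 15 rose (Cpt2, Slc25a20, Acadl, Acadm and Hadhb), against 3.28% of all tested genes, with a median of 0.32, of which Cpt2 kept the call in 7 and Slc25a20 in 12 of 16 such fits. This count became 4 to 10 over the alternatives, with 10 under total count scaling, and 3 to 6 with a library left out, with 3 without CD fed replicates 1, 2 or 4 or HFD fed replicate 3. Total count scaling moved the median of all tested genes in this comparison to 0.08 from 0.01. The share of all tested genes called under it is not given, so the 10 cannot be set against one. With HFD in fasted mice 1 of 15 fell, against 4.65% of all tested genes, Etfb at -0.41 (adjusted p = 0.0156), with a median of -0.21. In that comparison 7 of the 15 had an unadjusted p under 0.05, against 25.9% of all tested genes, and DESeq2 called 4, against 12.6%. The count of 1 became 0 to 4 over the alternatives and 0 to 2 with a library left out, being 2 when HFD fast replicate 1 or 2 was omitted and 0 when replicate 4 of that group was omitted. Without both HFD libraries numbered 4 the adjusted p of Etfb was 0.0525, and with HFD in fed mice 8 of the 15 were called. The shares of all tested genes above belong to the fit with all libraries, and none is given for this one.

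The interaction passed the test in edgeR for 4 of the 15 oxidation genes, all with a negative value, against 2.59% of all tested genes. An unadjusted p under 0.05 was found for 12 of the 15, against 20.2% of all tested genes, and DESeq2 called 11, against 7.69%, and limma-voom 5, against 2.37%. The count was 3 to 11 over the alternatives and 2 to 7 with a library left out, so that the number of oxidation genes called depended on these settings. The log2 interaction was -0.75 for Acadl (adjusted p = 0.0114), -0.70 for Hadhb (adjusted p = 0.0205), -0.66 for Hadha (adjusted p = 0.0344) and -0.59 for Etfb (adjusted p = 0.0268). The median over the 15 genes was -0.59, and over the 5 ketone genes it was -0.26, beside 0.00 over all tested genes. In the list of other ketone enzymes the interaction passed for Acat2 at 1.12 (adjusted p = 0.0256) and the acetate enzyme Acss2 at 1.99 (adjusted p = 0.0122), where the fall with fasting in CD was the larger change. Of the 16 fits that left out a library, the call was kept in 16 for Acadl and Acss2, in 15 for Hadhb, in 13 for Acat2, in 12 for Etfb and in 6 for Hadha. Without both HFD libraries numbered 4, the adjusted p was 0.0594 for Hadha and 0.0537 for Etfb. The erythrocyte marker Alas2 also had an interaction past the threshold, at 0.71 (adjusted p = 0.0248), and its part in these values was not tested.

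**Figure D4:**
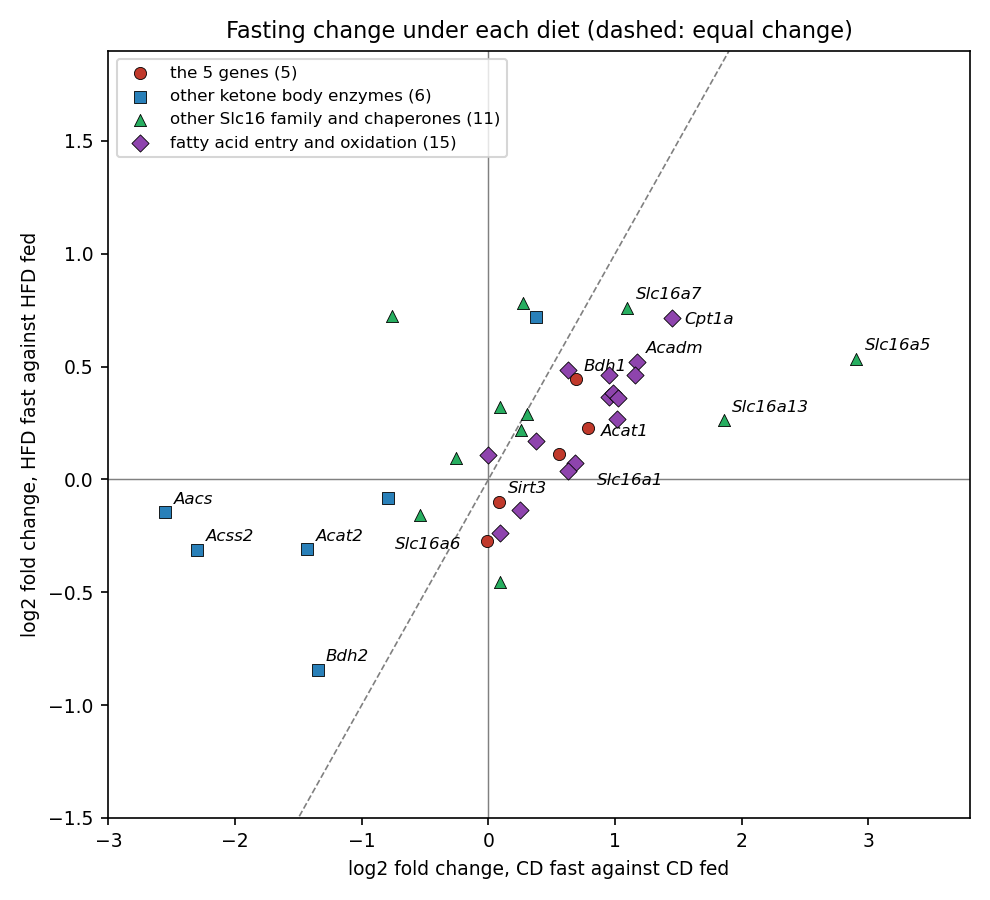
Log2 fold change with fasting under CD (horizontal axis) and under HFD (vertical axis) for the 5 genes (circles), 6 genes of the list of other ketone body enzymes (squares), 11 other Slc16 family genes and chaperones (triangles) and 15 genes of fatty acid entry and oxidation (diamonds). The dashed line marks equal change, and the squares include Acss1 and Acss2, which act on acetate. Bdh1, at 0.69 and 0.45, lies closer to the line than Acat1, at 0.79 and 0.23, a difference that was not tested.

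Of 8 regulators of the fasting programme, 2 rose with fasting in CD and 0 fell, against 13.7% and 11.5% of all tested genes, with a median log2 fold change of 0.33. An unadjusted p under 0.05 was found for 6 of the 8, against 37.6% of all tested genes. The count of 2 became 1 to 4 over the alternatives and also with a library left out, being 1 without CD fed replicates 3 or 4 or CD fast replicates 2 or 4 and 4 without HFD fast replicate 4. Creb3l3, a liver transcription factor that works with PPAR alpha, rose from a mean of 361 to 627 CPM, a log2 fold change of 0.79 (SE 0.13, adjusted p = 0.000603). Ppargc1a, the coactivator PGC-1 alpha, had a log2 fold change of 1.24 (SE 0.39, adjusted p = 0.0287) with overlapping groups. Without CD fast replicate 2 the Ppargc1a value was 0.71 (adjusted p = 0.141), and with the replicate number as a block in the CD libraries the adjusted p was 0.0509. Ppara itself, the receptor that drives the programme, had a log2 fold change of 0.37 in CD (adjusted p = 0.0680) and 0.41 in HFD (adjusted p = 0.0786), and Fgf21, the fasting hormone, of 1.43 (adjusted p = 0.0863) and 1.70 (adjusted p = 0.0832). DESeq2 called 4 of the 8 regulators with fasting in CD, against 26.5% of its tested genes, and limma-voom 1, against 24.5%. With fasting in HFD 0 of 8 regulators passed in edgeR, against 4.78% of all tested genes called higher and 4.07% lower, and 4 had an unadjusted p under 0.05, against 25.6%. In that comparison limma-voom called 0, against 8.56%, and DESeq2 2, against 12.6%. Without both HFD libraries numbered 4, 4 were called with fasting in CD and 2 with fasting in HFD. No share of all tested genes is given for that fit, so whether calls rose for all genes alike cannot be told. The count in HFD was 0 to 2 over the alternatives and 0 to 3 with a library left out, with 3 in the fit that omitted HFD fast replicate 4.

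Beside Sirt3, none of the 6 other sirtuins passed the test with fasting in CD in edgeR, against 13.7% of all tested genes called higher and 11.5% lower. DESeq2 and limma-voom also called 0 of them, against 26.5% and 24.5%. An unadjusted p under 0.05 was found for 2 (Sirt2 and Sirt6), a share near the 37.6% of all tested genes. The median log2 fold change of the 6 was 0.08, beside 0.09 for Sirt3. The mitochondrial sirtuins Sirt4 and Sirt5 averaged 4.06 and 2.38 CPM per kb in CD fed livers (SD 0.61 and 0.27), against 14.1 CPM per kb for Sirt3. Of 7 genes for mitochondrial proteins known as SIRT3 substrates, 2 rose with fasting in CD, Acadl at 1.02 (adjusted p = 5.78e-06) and Idh2 at 0.59 (adjusted p = 0.0267), and Otc, the urea cycle enzyme, fell by 0.71 on the log2 scale (adjusted p = 0.0100). These counts of 2 higher and 1 lower stand against 13.7% and 11.5% of all tested genes, and the median over the 7 genes was -0.03. One of the 7, Acss1, was scarce, averaging 0.24 to 0.55 CPM in the groups, so a change in it was hard to detect. DESeq2 and limma-voom each called 4 of the 7, against 26.5% and 24.5%, and the count of 3 became 2 to 4 with a library left out. With fasting in HFD 0 of 7 were called in edgeR, against 4.78% of all tested genes called higher and 4.07% lower, while 4 of 7 had an unadjusted p under 0.05, against 25.6%. For these 7 genes limma-voom called 0 and DESeq2 2, against 8.56% and 12.6%, and the edgeR count was 0 to 2 with a library left out. The call of Idh2 was lost in 6 of 16 fits that left out a library, up to an adjusted p of 0.0811 when CD fast replicate 2 was omitted. With HFD in fed mice 1 of 7 rose and 0 fell, against 3.28% and 4.22% of all tested genes, Acadl at 0.54 (adjusted p = 0.00292).

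The genes whose level ran most like each of the 5 genes over the 16 libraries are given by the Pearson correlation of log2 CPM among 10983 genes with a mean of at least 100 counts. The libraries share 4 groups, so that a group difference in both genes raises the value, and the values are a description. Acat1 was most like Acadm (r = 0.97), Ech1 (r = 0.95) and Chrna2 (r = 0.95), of which Acadm and Ech1 encode enzymes of fatty acid oxidation. Bdh1 was most like Fam102a (r = 0.97), Hacd3 (r = 0.96) and Slc27a1 (r = 0.96), the last a fatty acid transport protein. Slc16a1 was most like Ppig (r = 0.87), Snrnp27 (r = 0.86) and Nomo1 (r = 0.86), and Sirt3 was most like Dmac2 (r = 0.81), 2510039O18Rik (r = 0.80) and Hectd3 (r = 0.80). Slc16a6 was most like Tpm1 (r = 0.75), Vangl1 (r = 0.68) and 4933431E20Rik (r = 0.68). Between the 5 genes the correlation was highest for Acat1 and Bdh1 (r = 0.88), and after subtraction of each group's mean it was 0.30. After that subtraction the values for Bdh1 and Slc16a1 (0.44), Slc16a1 and Slc16a6 (0.38) and Acat1 and Slc16a1 (0.36) were higher, and that for Slc16a6 and Sirt3 was -0.62, so that the order of the pairs depended on the group differences.

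The libraries matched their labelled tissue. Hepatocyte markers summed to 71093 CPM or more in every library, whereas the 4 skeletal muscle markers summed to at most 1.04 CPM and the 4 exocrine pancreas markers to at most 1.78 CPM. The 4 adipocyte markers summed to 0.36 to 6.99 CPM in CD and HFD fed livers and CD fast livers and to 2.08 to 70.3 CPM in HFD fast livers. Library totals ranged from 41364448 to 57583153 counts. No 2 libraries of a group agreed within sampling noise, as the lowest chi-square per gene among 24 pairs was 34.6.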

How the data were processed

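Liver RNA of 16 mice was analysed. The values deposited by the authors are unnormalized counts of reads for each Ensembl gene, in 1 table. According to the study's methods and the submitters' processing notes, polyadenylated RNA was sequenced as paired ends, aligned to GRCm38 with TopHat2 2.0.11 in a first-strand mode and counted with featureCounts. The strand setting of the counting is not given in the sources used here. Poly(A) selection limits the values to polyadenylated RNA, and gene counts do not resolve isoforms.

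Libraries were grouped by their labels. The 5 genes and the gene lists were chosen with earlier results of these data known. In R 4.3.3 with edgeR 4.0.16, genes kept by filterByExpr were scaled with TMM (a trimmed mean of log ratios) and fitted with a mean for each of the 4 groups, which left 12 residual degrees of freedom and a common biological variation of 19.2%. The quasi-likelihood test with Benjamini-Hochberg adjustment was run for 4 pairwise comparisons and the interaction, at a threshold of 0.05. The scripts were tested on data simulated for fasting in CD with 200 changed genes, far fewer than the 3797 called in the data. There DESeq2 recovered more of the changed genes than edgeR or limma-voom and a larger share of its calls was false. Log2 CPM for correlations used a prior count of 2. Exon lengths and positions came from the GENCODE annotation of GRCm38.

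The named genes are the 5 genes, members of the 6 lists that were called or define them, and for each of the 5 genes the 3 most correlated genes. Markers of cell types and genes that overlap the 5 genes are named as well. Alternatives were other scalings and filters, DESeq2 1.42.0, limma-voom (limma 3.58.1), the compared groups alone, a robust fit, a replicate block and each library left out. Deviations from group means of libraries with the same number correlated at 0.12 to 0.14 in each of the 4 pairs of CD fed and CD fast. Between HFD fed and HFD fast these values ran from 0.09 to 0.75, and in each of the other comparisons at least 1 pair was under 0.1. The labels do not say that a number links mice, so a pairing in CD rests on these correlations alone. The block fits are therefore alternatives only. A block fit on the 8 CD libraries and a fit without replicate 4 of both HFD groups, which correlated at 0.75, were added after seeing the data. P-values set a group difference against the spread between these livers, estimated over the 4 groups together. The 95% intervals of fold changes come from the edgeR fit and include that spread.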

Additional observations from a re-analysis of the deposited data

Results flagged for a closer look

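In the comparison of fasting between diets, 6 of the 56 genes tested here (the 5 genes and their lists) had an interaction past the threshold in edgeR, against 2.59% of all tested genes. The log2 change with fasting under HFD minus that under CD was -0.75 for Acadl, -0.70 for Hadhb, -0.66 for Hadha, -0.59 for Etfb, 1.12 for Acat2 and 1.99 for Acss2. None of them was among Acat1, Bdh1, Slc16a1, Slc16a6 and Sirt3.

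In the HFD fed group, the library of replicate 4 stood apart for Acat2, at 33.7 CPM below 3 libraries that lay between 40.6 and 41 CPM. This was the only such library among 36 groups checked (9 genes in 4 groups), and chance marks about 1 in 20 groups.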

How the results depend on the processing

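The calls of Acat1 and Bdh1 for fasting in CD kept their direction and side of the threshold under all 11 alternatives, all 16 fits that left out a library and the fit without both HFD libraries numbered 4. The log2 fold change lay between 0.71 and 0.84 for Acat1 and between 0.65 and 0.70 for Bdh1. The Slc16a1 call for fasting in CD was lost under total count scaling (adjusted p = 0.0659), without a count filter (adjusted p = 0.0549) and with the compared groups alone (adjusted p = 0.0602). The number of the 5 genes called fell from 1 to 0 for fasting in HFD when only the groups compared were fitted. For HFD in fed mice it rose from 1 to 2 under total count scaling, upper quartile scaling, the CPM filter, DESeq2, limma-voom and the compared groups alone, with Bdh1 as the added call, and ranged from 0 to 2 when a library was left out. For HFD in fasted mice it rose from 0 to 1 (Slc16a1) under DESeq2 size factors, DESeq2 and the replicate block, and ranged from 0 to 1 when a library was left out. For the interaction it rose from 0 to 1 (Acat1) under the CPM filter and DESeq2. The cause was not tested, and the share of all tested genes called is given only for DESeq2 and limma-voom among these alternatives.

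Values near 0 changed sign. For Slc16a6 with fasting in CD the log2 fold change was 0.028 under the replicate block and -0.18 to 0.13 with a library left out, and with HFD in fasted mice it was 0.13 under total count scaling, 0.0039 under upper quartile scaling and -0.19 to 0.069 with a library left out. Under total count scaling, Acat1 was 0.019 and Sirt3 0.058 with HFD in fasted mice, where that scaling moved the median of all genes to 0.17. With a library left out, Slc16a1 with fasting in HFD ranged from -0.067 to 0.22 and Bdh1 with HFD in fasted mice from -0.027 to 0.12. In the fit of the 8 CD libraries with the replicate number as a block, no call of the 5 genes changed. The adjusted p there was 0.00413 for Acat1, 0.00277 for Bdh1 and 0.0190 for Slc16a1. At 223 to 486 counts in a library, Slc16a6 had the widest intervals of the 5 genes.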
